A study of Homo sapiens with 6 samples.

Results

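Transcripts of the transcription factor MAF, of the 3 D-type cyclins, of 4 genes reported as targets or companions of MAF in myeloma (ITGB7, CCR1, NUAK1 and DEPTOR) and of FGFR3 were measured in cultured JJN3 cells, a long-established human line of multiple myeloma. These 9 genes, of 19775 named on the array, were chosen by name and found through every probe set whose annotation gives exactly 1 gene, matched by Entrez identifier. That gave 22 of 54613 probe sets other than controls, and no filter removed any of them. RNA came from cells transduced with a short hairpin RNA (shRNA) against CKS1B, on 3 arrays, and from cells transduced with a non-specific scrambled shRNA, on 3 arrays, all on Affymetrix U133 Plus 2.0 arrays. Both groups are the same line and both carry a virally delivered hairpin. Separate cultures are not recorded in the labels, so p-values reflect only how much the arrays vary, which may be technical. Each group has an array A, B and C by its titles, values of a group are given in that order, and 1 scrambled title (B) includes a further word, poly, of unstated meaning.

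MAF is a basic leucine zipper protein of the large MAF family that binds DNA as a dimer, and in a subset of myelomas, JJN3 among the lines, a translocation places it beside the immunoglobulin heavy chain locus. Its reported targets there include CCND2, ITGB7 and CCR1, and NUAK1 is reported as a target of the large MAF proteins. D-type cyclins bind CDK4 and CDK6 and start the phosphorylation of RB1 in G1, and nearly all myelomas overexpress a member of this family. CCND1, CCND3 and FGFR3 are each activated by other translocations of myeloma and serve here as genes of the groups to which JJN3 does not belong. CKS1B, the target of the hairpin, helps SKP2 to mark the kinase inhibitor p27 for degradation.

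The recognition element of MAF holds TGCTGAC or TGCTGAG as a half-site. These letters were searched on both strands in the 250 bases before annotated starts, from RefSeq on GRCh38.p14. Windows of MAF, CCND3, ITGB7, CCR1, NUAK1 and FGFR3 were included. None of CCND1, CCND2 or DEPTOR was, so nothing is stated about theirs. MAF itself and 2 of its reported targets are shown. Capitals mark a half-site.
MAF promoter, chr16:79600738-79600987, minus strand: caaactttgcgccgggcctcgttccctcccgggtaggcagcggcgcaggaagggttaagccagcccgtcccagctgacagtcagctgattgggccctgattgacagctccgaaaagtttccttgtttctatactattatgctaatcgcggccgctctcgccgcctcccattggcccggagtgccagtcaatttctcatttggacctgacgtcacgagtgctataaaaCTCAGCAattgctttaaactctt
ITGB7 promoter, chr12:53207252-53207501, minus strand: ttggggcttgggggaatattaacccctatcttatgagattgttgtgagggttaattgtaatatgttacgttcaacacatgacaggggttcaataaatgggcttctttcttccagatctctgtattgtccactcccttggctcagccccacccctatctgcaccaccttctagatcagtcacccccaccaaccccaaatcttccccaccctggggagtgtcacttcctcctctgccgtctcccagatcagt
CCR1 promoter, chr3:46208314-46208563, minus strand: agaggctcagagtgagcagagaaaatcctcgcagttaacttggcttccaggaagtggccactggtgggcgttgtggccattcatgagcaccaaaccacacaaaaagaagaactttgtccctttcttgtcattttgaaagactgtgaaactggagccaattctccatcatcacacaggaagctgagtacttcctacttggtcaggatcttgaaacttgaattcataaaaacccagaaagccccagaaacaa
The MAF window held 1 half-site, TGCTGAG on the opposite strand, whose first letter on the strand shown lies at position -23 from the start. Of 8 windows of these 6 genes, 2 held a half-site, that of MAF and 1 of the 3 windows of CCND3, where TGCTGAC lies at position -131. Over all 35116 windows of this length 8.33% held one. The windows of ITGB7 and CCR1 do not hold these letters, and a match or its absence describes the window only.

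Array B of the CKS1B shRNA group differed from the rest before any gene was considered. Its Pearson correlation with them across the probe sets, which are not independent replicates, lay between 0.577 and 0.610, against 0.879 to 0.958 among the other 5. Its ratio of the 3' to the 5' actin control was 12.4, against 1.05 to 2.93 elsewhere, and that of GAPDH was 4.70, against 0.981 to 1.18. The 2.93 was that of CKS1B shRNA array C, with at most 1.66 on the rest. Scrambled array C had a median value of 201.6, against 117.5 to 136.3 on the rest other than CKS1B shRNA array B. The 5 arrays without CKS1B shRNA array B are thus not alike either. Of the 8407 probe sets with a scrambled mean of 1000 or more, 75.8% read below their scrambled mean on CKS1B shRNA array B (median shift -1.004 on the log2 scale). On CKS1B shRNA array A 38.9% did so, and on C 51.9%. The differences of named genes are therefore given with and without CKS1B shRNA array B, and the part of RNA quality in any of them was not tested. CKS1B read 481, 269 and 828 with the CKS1B shRNA, against 8266, 8441 and 7294 with the scrambled shRNA. The groups did not overlap. The log2 difference was -4.02 (SE 0.44), with an adjusted p of 0.122 in limma and a two-sided exact permutation p of 0.1, the smallest that 3 arrays against 3 allow. Without CKS1B shRNA array B it was -3.63 (adjusted p = 3.15e-05 in limma).

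Within the line, the brightest probe sets of MAF, CCND2 and DEPTOR lay among the bright ones of every array, and those of CCND1 and FGFR3 among the dim ones. Levels are linear MAS5 values. In RNA of a whole culture, fewer expressing cells and less RNA per cell cannot be told apart. Probe sets differ in how brightly they read, so levels of different genes are given only by their place on their own array, as the percentile among its 54613 probe sets. As a measure of dim signal, 17 genes restricted to other tissues (among them TG of the thyroid and SFTPC of the lung) were read on each array through their brightest probe sets. The highest of them read 325.5, 1005.5 and 429 with the CKS1B shRNA, against 349, 427 and 783 with the scrambled shRNA. By their brightest probe sets, 7 of the 9 genes read above that value on all 5 arrays other than CKS1B shRNA array B, and 3 of them, MAF, CCND2 and DEPTOR, on all 6. A second probe set of CCR1, 205099_s_at, also did so on all 6. CCND1 and FGFR3 read above it on 0 arrays.

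**Figure D1:**
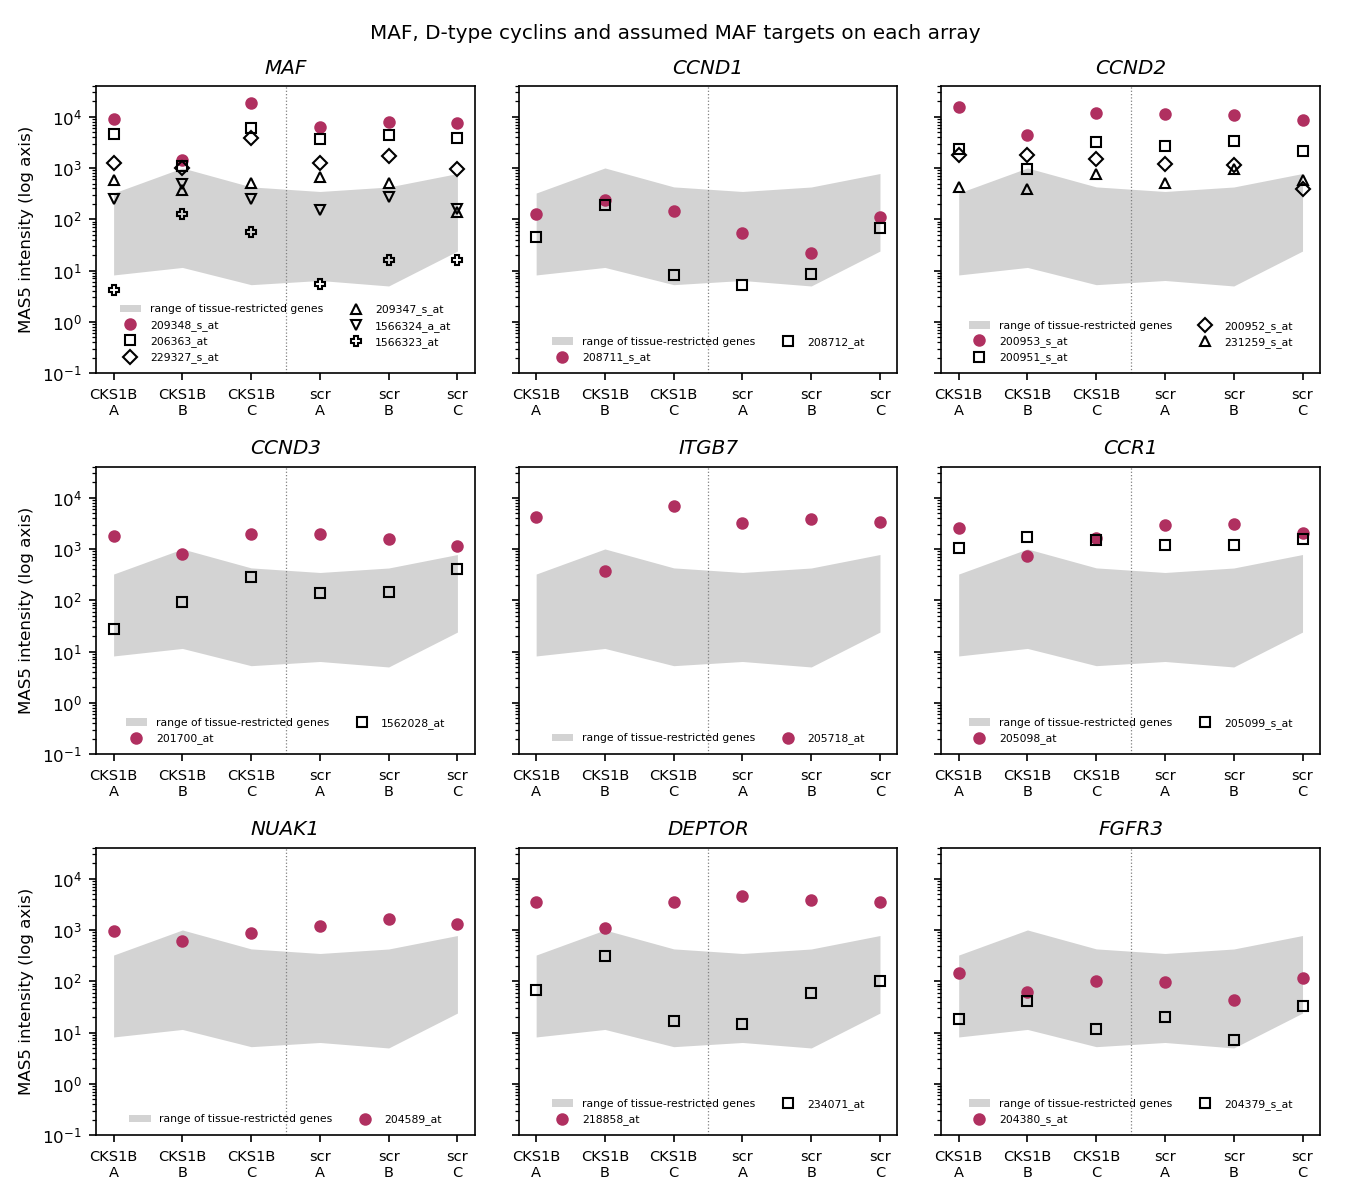
MAS5 intensity (log axis) of every probe set of the 9 genes on the 3 arrays with the CKS1B shRNA (CKS1B) and the 3 with the scrambled shRNA (scr). Filled points are the brightest probe set of a gene, open points its others, and the grey band spans the lowest to the highest of 17 tissue-restricted genes; the filled points of MAF, CCND2 and DEPTOR lie above the band on all 6 arrays, and no point of CCND1 or FGFR3 lies above it.

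MAF was read by 6 probe sets that spanned most of the range of the array. The brightest, 209348_s_at, read 8989.6, 1460.5 and 19039.8 with the CKS1B shRNA, against 6289, 8006 and 7491 with the scrambled shRNA. It lay at the 92.2nd to 99.3rd percentile. CKS1B shRNA array B was the lowest of the 6 and array C the highest, so the groups overlapped. The next, 206363_at, read 4720.1, 1096 and 6035 with the CKS1B shRNA, against 3750.5, 4412 and 3878 with the scrambled shRNA, in the same order of CKS1B shRNA arrays. Probe set 229327_s_at read 1241, 1013 and 3899, against 1253.5, 1748.5 and 959, with array C again the highest. The other 3 were dimmer: 209347_s_at read 373 to 585 with the CKS1B shRNA and 137 to 661 with the scrambled shRNA, 1566324_a_at read 248 to 499.8 and 153.5 to 272, and 1566323_at read 4.1 to 127.5 and 5.4 to 16.4. The last 2 did not read above the highest tissue-restricted gene on any array.

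On the log2 scale, the sign of the difference of the brightest MAF probe set turned with CKS1B shRNA array B. Differences are taken on log2(value + 16), CKS1B shRNA minus scrambled shRNA, a scale that understates changes of dim probe sets. Over 6 arrays the brightest MAF probe set averaged 9830.0 ± 8819.7 with the CKS1B shRNA and 7262 ± 881 with the scrambled shRNA (SD, n = 3 each), a log2 difference of -0.19 (SE 0.83, adjusted p = 0.9999 in limma). An exact permutation test gave p = 1. The linear mean was thus higher with the CKS1B shRNA while the log2 difference was negative, and without CKS1B shRNA array B the linear mean was 14014.7. Without CKS1B shRNA array B the 2 remaining arrays both lay above all 3 scrambled arrays, with a log2 difference of 0.86 (SE 0.30, unadjusted p = 0.0127, adjusted p = 0.821 in limma). The second probe set, 206363_at, gave -0.34 with 6 arrays and 0.41 without that array, again with no overlap in the smaller comparison. With 6 arrays the other 4 gave 0.39 to 1.07. All 6 MAF probe sets had a positive difference without CKS1B shRNA array B (0.39 to 0.86), and under quantile normalization of those 5 arrays they gave 0.25 to 0.81. The brightest then gave 0.47 (adjusted p = 0.858 in limma). None of these values passed the threshold of 0.05 over all probe sets.

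The brightest probe sets of ITGB7, CCR1, NUAK1 and DEPTOR all gave negative log2 differences with 6 arrays, and without CKS1B shRNA array B that of ITGB7 was positive and the other 3 negative. None of these values passed the test. ITGB7 is the integrin beta chain that pairs with ITGA4 or ITGAE and binds MAdCAM-1 and E-cadherin. On the CKS1B shRNA arrays it had the order of MAF, lowest on B and highest on C. ITGAE, STK11, MAP2K2 and MZB1 had this order too, while CDK4 and CDK6 were highest on A. How common the order is over all probe sets was not counted, and a tie to MAF was not tested. The single ITGB7 probe set read 4199, 366 and 6939 with the CKS1B shRNA, against 3218, 3938 and 3415 with the scrambled shRNA. Array B, at the 53.6th percentile of its own array, stood far below the others, which lay at the 94.8th to 97.9th. Over 6 arrays the log2 difference was -0.66 (SE 0.87). Without that array it was 0.62 (SE 0.27, unadjusted p = 0.0345, adjusted p = 0.854 in limma), when both remaining CKS1B shRNA arrays lay above all scrambled ones.

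CCR1, a receptor for CCL3, CCL5 and other inflammatory chemokines, was read by 2 probe sets that differed from each other. Probe set 205098_at read 2582, 739.5 and 1682 with the CKS1B shRNA, against 2996, 3100.3 and 2016 with the scrambled shRNA. Over 6 arrays its log2 difference was -0.84 (SE 0.49), against -0.35 when CKS1B shRNA array B was left out, and the groups overlapped in both. Probe set 205099_s_at read 1047, 1729 and 1491 against 1208, 1206 and 1576, which gave 0.08 on the log2 scale (SE 0.37), -0.16 with centring and -0.08 without CKS1B shRNA array B. On CKS1B shRNA array B the first probe set was at its lowest and the second at its highest.

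NUAK1, a kinase of the AMPK-related family that is activated by STK11, was the only gene of the 9 whose brightest probe set lay below every scrambled array on each of the 3 CKS1B shRNA arrays. It read 950.2, 614 and 864 with the CKS1B shRNA, against 1208, 1649.7 and 1308 with the scrambled shRNA. Means were 809.6 ± 174 and 1389 ± 232 (SD, n = 3 each). The log2 difference was -0.78 (SE 0.36, unadjusted p = 0.0536, adjusted p = 0.9999 in limma), or 1.71-fold lower, and -0.59 (SE 0.27, adjusted p = 0.8701) without CKS1B shRNA array B. Quantile normalization gave -0.87 with 6 arrays and -0.57 without that array, and centring of the 5 arrays gave -0.40. Of all probe sets, 3.6% were lower without overlap in the same way.

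DEPTOR, which binds and inhibits mTOR, read 3559.7, 1090.2 and 3607 with the CKS1B shRNA, against 4692, 3854 and 3590.3 with the scrambled shRNA, through 218858_at. Scrambled array C lay between CKS1B shRNA arrays A and C, so the groups overlapped by a small margin. The log2 difference was -0.73 (SE 0.52), and -0.16 (SE 0.24) without CKS1B shRNA array B, where centring turned the sign (0.03). The other DEPTOR probe set, 234071_at, read 17.0 to 316 and 14.7 to 103.5, within the range of the tissue-restricted genes (log2 0.58, and -0.31 without that array).

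**Figure D2:**
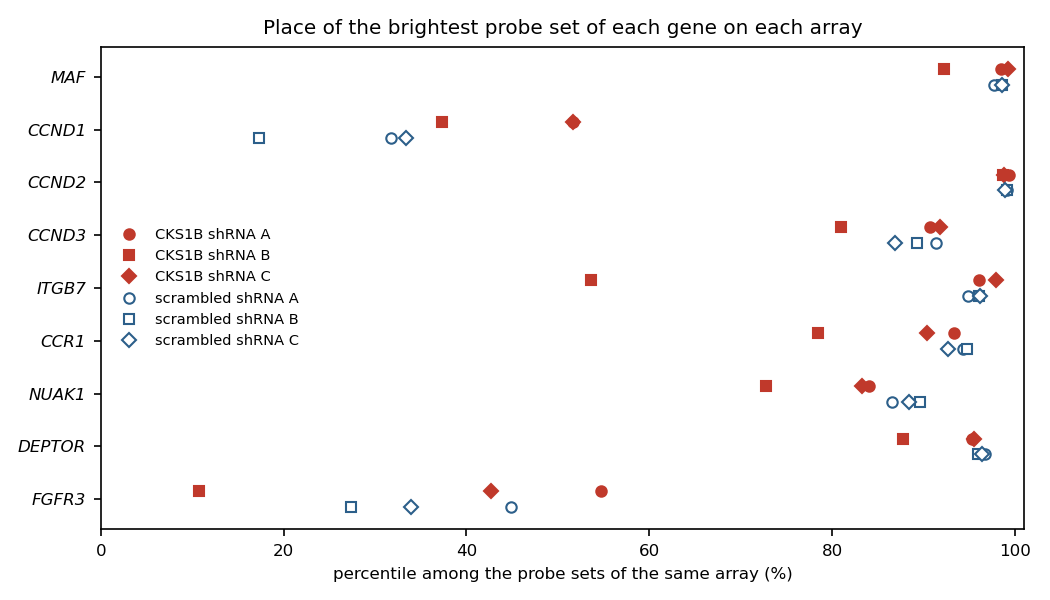
Percentile of the brightest probe set of each gene among all probe sets of the same array, for the CKS1B shRNA arrays (filled, upper row of each gene) and the scrambled arrays (open, lower row). CCND2 lies between the 98.7th and 99.4th percentile on all 6 arrays, while ITGB7 on CKS1B shRNA array B is at the 53.6th against at least the 94.8th elsewhere.

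Among the cyclins, CCND2 lay near the top of every array by its brightest probe set, and its other 3 probe sets lay lower, at the 55.3rd to 95.2nd percentile. Its brightest probe set, 200953_s_at, read 15659, 4416.5 and 11629 with the CKS1B shRNA, against 11326, 10638.5 and 8517 with the scrambled shRNA. The value on CKS1B shRNA array B was the lowest of the 6, at a percentile of 98.7, against 98.8 to 99.4 on the other arrays. The log2 difference was -0.12 (SE 0.67, adjusted p = 0.9999 in limma, exact permutation p = 1). Without CKS1B shRNA array B it was 0.42 (SE 0.26, adjusted p = 0.942), and 0.10 after quantile normalization of the 5 arrays.

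The other CCND2 probe sets did not move alike. Probe set 200952_s_at read 1788, 1793 and 1509 on the CKS1B shRNA arrays, against 1218, 1143.5 and 382 on the scrambled arrays, without overlap. The lowest value was that of scrambled array C. Its log2 difference was 1.04 (SE 0.46, unadjusted p = 0.0468, adjusted p = 0.9999 in limma), or 2.06-fold higher, and 1.001 without CKS1B shRNA array B. Probe set 200951_s_at read 2336, 971 and 3228 against 2726, 3313 and 2143 (log2 -0.46, and 0.03 without that array), and 231259_s_at read 432, 383 and 779 against 502, 949.9 and 597 (log2 -0.37 and -0.18). The groups overlapped for both, and the sign of each in the 5-array comparison turned with the scaling.

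CCND1 was dim in both groups. Its probe set 208711_s_at read 126, 237 and 145 with the CKS1B shRNA, against 54.3, 22.3 and 112 with the scrambled shRNA. All 3 CKS1B shRNA arrays lay above the scrambled ones, with a log2 difference of 1.36 (SE 0.76, unadjusted p = 0.103, adjusted p = 0.9999 in limma), and 1.11 without CKS1B shRNA array B. Each of these values lay below the highest tissue-restricted gene of its array. The second probe set, 208712_at, read 45.2, 194.5 and 8.3 against 5.2, 8.7 and 69.0, with overlap (log2 0.94, and 0.12 without that array).

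CCND3 read above the highest tissue-restricted gene on the 5 arrays other than CKS1B shRNA array B, by 1 of its 2 probe sets. Probe set 201700_at read 1827.5, 810.1 and 1982 with the CKS1B shRNA, against 1995, 1585 and 1137 with the scrambled shRNA. The groups overlapped, with a log2 difference of -0.10 (SE 0.44) that was 0.31 (SE 0.28) without CKS1B shRNA array B. Probe set 1562028_at read 27.4, 94.1 and 280.4 against 139.7, 143 and 416, also with overlap (log2 -0.97, and -0.96 without that array).

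FGFR3, a receptor tyrosine kinase switched on by another translocation of myeloma, read 143, 62.0 and 103 with the CKS1B shRNA, against 98.9, 43.3 and 114 with the scrambled shRNA, through 204380_s_at. Probe set 204379_s_at read 18.8, 42.2 and 11.5 against 20.2, 7.1 and 32.9. Their log2 differences were 0.25 and 0.15 with 6 arrays, and 0.52 and -0.16 without CKS1B shRNA array B. Both lay within the range of the tissue-restricted genes on every array, and both had signs that turned with the scaling.

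As a group, 0 of the 22 probe sets passed an adjusted p of 0.05 in limma with 6 arrays, and 0% of all probe sets did. At an unadjusted p under 0.05 there was 1 of 22 (CCND2 200952_s_at), against 0.927% of all probe sets as higher and 0.84% as lower. The groups did not overlap for 3 of 22, CCND1 208711_s_at and CCND2 200952_s_at as higher and NUAK1 as lower, against 7.77% of all probe sets (4.17% as higher, 3.6% as lower). The median difference was -0.01 over the 22, with 11 positive and 11 negative, and 0.12 over all probe sets. Centring each array on its median moved every difference by a similar amount, -0.234 with 6 arrays and 0.198 without CKS1B shRNA array B (medians over all probe sets). Among the 11 with a scrambled mean of 1000 or more the median was -0.34, against -0.33 over the 8407 such probe sets. In 1 of these 11, NUAK1, the groups did not overlap, against 13.2% of the 8407.

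Without CKS1B shRNA array B, 0 of 22 passed, against 0.00916% of all probe sets as higher and 0.011% as lower. At an unadjusted p under 0.05 there were 4, MAF 209348_s_at, CCND2 200952_s_at and ITGB7 as higher and NUAK1 as lower, against 2.45% and 3.21% of all probe sets. The groups then did not overlap for 6 as higher (2 of MAF, 2 of CCND2, and 1 each of CCND1 and ITGB7), against 7.99% of all probe sets, and for 1 as lower (NUAK1), against 13.7%. Probe sets of 1 gene share its transcript and are not separate evidence. Among the 11 bright ones these counts were 4 and 1, against 18.3% and 12.6% of all bright probe sets. The median was 0.35 over the 22 (14 positive, 8 negative), against -0.15 over all probe sets, and 0.31 over the 11 bright ones against 0.04.

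**Figure D3:**
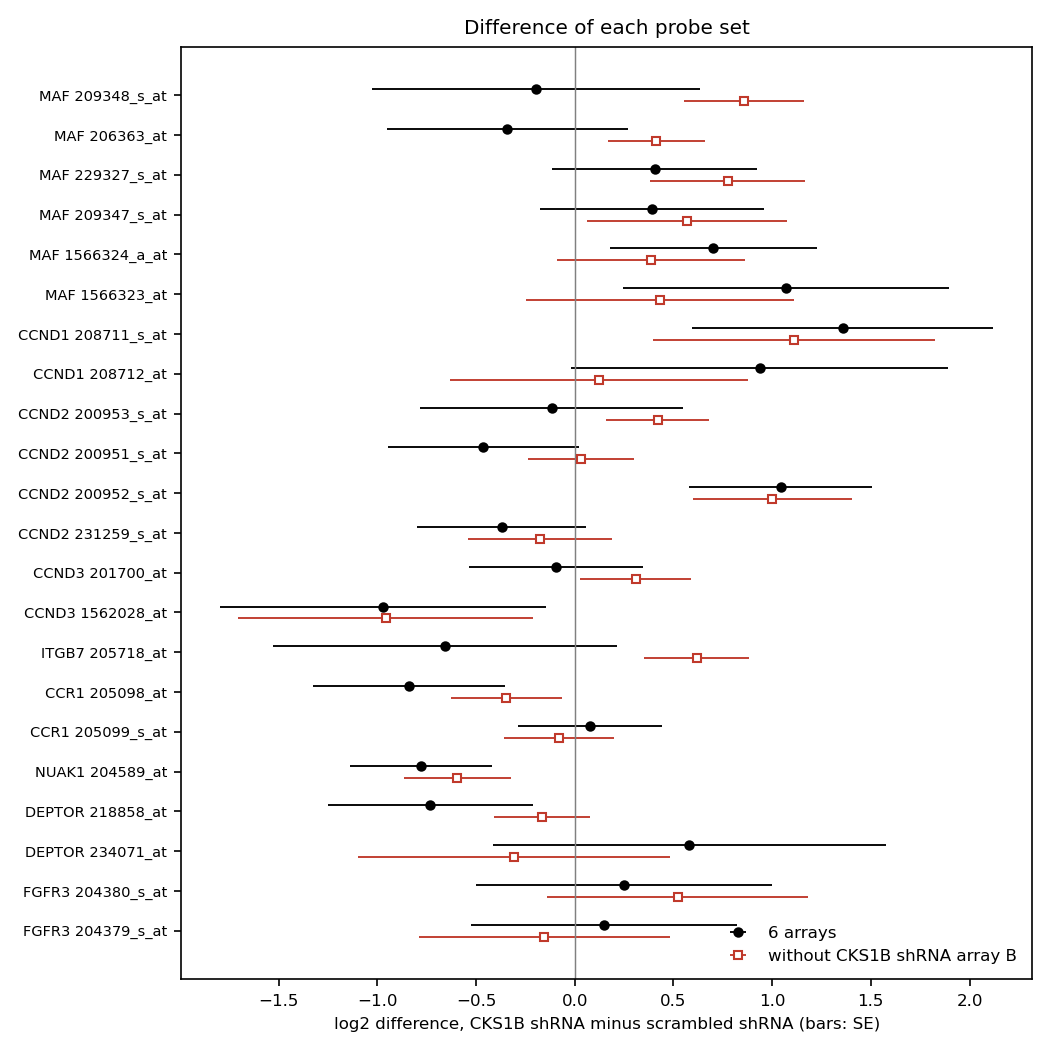
Log2 difference, CKS1B shRNA minus scrambled shRNA, of each probe set with its SE from limma, with 6 arrays (filled circles) and without CKS1B shRNA array B (open squares). The brightest probe sets of MAF, CCND2, CCND3 and ITGB7 lie below 0 with 6 arrays and above 0 without that array, while NUAK1 lies below 0 in both.

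The partners, inhibitors and targets of the D-type cyclins gave 18 genes by their brightest probe sets, of which 0 passed as higher and 0 as lower over all probe sets. Their median log2 difference was 0.06, with 12 positive and 6 negative, and 0.15 without CKS1B shRNA array B, with 14 positive and 4 negative. The 2 of smallest p were CDKN1B (p27), an inhibitor of cyclin-dependent kinases that also binds cyclin D complexes, and E2F2, a transcription factor that RB1 holds in check. CDKN1B read 4337, 6957 and 4212 with the CKS1B shRNA, against 2709.6, 1491 and 1728 with the scrambled shRNA, without overlap. The log2 difference was 1.39 (SE 0.44, unadjusted p = 0.00889, adjusted p = 0.9999 in limma). Without CKS1B shRNA array B it was 1.15 (unadjusted p = 0.000817, adjusted p = 0.501 in limma), again without overlap. With 6 arrays the groups did not overlap for 2 of the 18 genes, against 7.77% of all probe sets. Without that array they did not for 3, against 21.7%. E2F2 read 2590.3, 1241 and 1371 against 4157, 3639.8 and 2249.5 (log2 -0.98, SE 0.44), and -0.78 without that array. The kinases CDK4 and CDK6 read lowest on CKS1B shRNA array B. CDK4 read 5520.1, 1267 and 3397 against 6471, 5494 and 5734, and CDK6 read 9369, 927 and 6646 against 7965, 8017 and 7163. The log2 differences with 6 arrays were -1.03 for CDK4 and -0.99 for CDK6, and without that array they were -0.44 and 0.03.

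**Figure D4:**
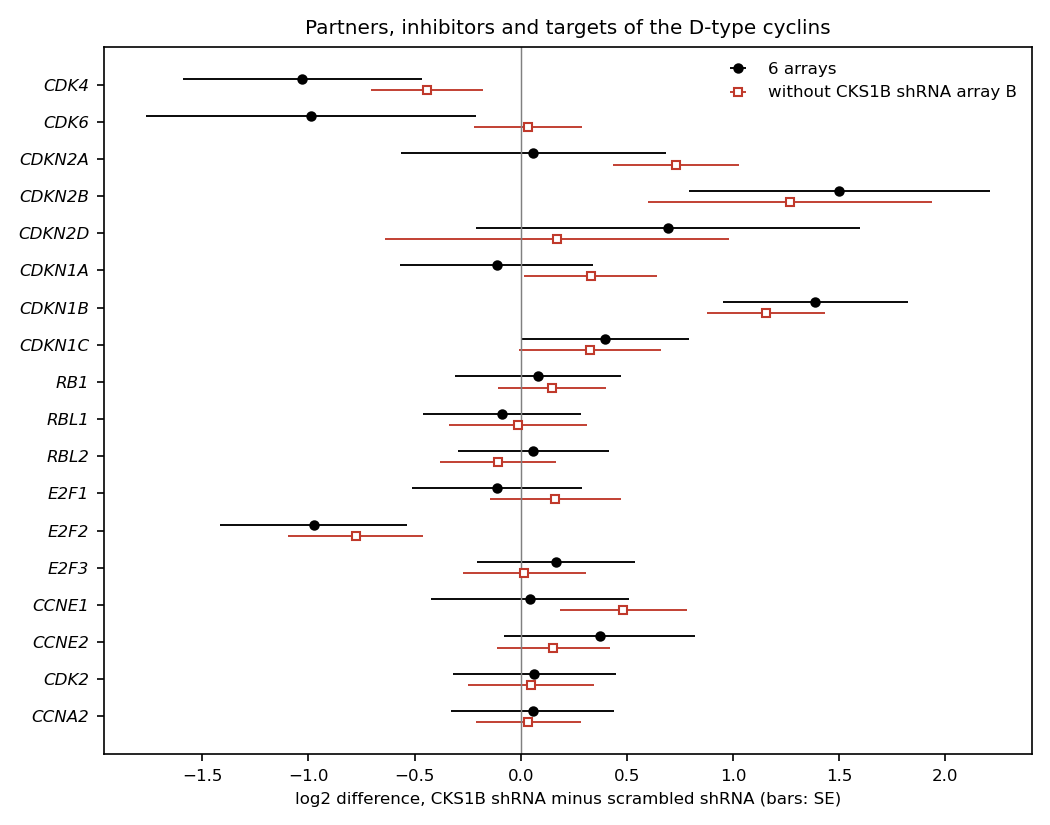
Log2 difference, CKS1B shRNA minus scrambled shRNA, with its SE for 18 genes of the cyclin D, CDK4/6 and RB1 pathway, with 6 arrays (filled circles) and without CKS1B shRNA array B (open squares). CDKN1B lies at 1.39 and 1.15, and CDK6 at -0.99 and 0.03.

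Other genes tied to MAF and its targets were counted from further lists, in which 0 genes passed in either direction, with or without CKS1B shRNA array B. Of the MAF family, 4 genes were named by a probe set of their own. MAFG, a small MAF protein that lacks a transactivation domain, read 1287, 1211 and 1640.1 with the CKS1B shRNA, against 444, 613 and 1108 with the scrambled shRNA (log2 1.01, SE 0.41, adjusted p = 0.9999 in limma), without overlap, and the difference was 1.09 without CKS1B shRNA array B. MAFF, another small MAF protein, read 873, 3086 and 1609.9 against 359, 1834 and 375.5 (log2 1.35, SE 0.65, and 0.89 without that array), with overlap. CX3CR1 and NTRK2, which are reported as high in MAF-expressing myelomas, read 47.3 to 190.4 against 109 to 228, and 196.5 to 530.0 against 289.6 to 440.4, below the highest tissue-restricted gene on every array. Their log2 differences were -0.55 and -0.29 with 6 arrays, and -0.86 and -0.69 without CKS1B shRNA array B. Of 12 genes tied to the expression, activity or turnover of MAF (kinases, ubiquitin enzymes and the AP-1 factors FOS and JUN), 5 were positive and 7 negative (median -0.27), and 10 and 2 without CKS1B shRNA array B (median 0.17). MAP2K1 and MAP2K2, the MEK kinases upstream of MAF transcription, had the smallest p. MAP2K1 read 2917, 347 and 1482.5 with the CKS1B shRNA, against 2866, 2656 and 2380.6 with the scrambled shRNA (log2 -1.18, and -0.33 without CKS1B shRNA array B). MAP2K2 read 4214.5, 732 and 6708 against 6411, 4936 and 5693.5 (log2 -1.03, and -0.09 without that array). In both, the lowest value was that of CKS1B shRNA array B, and another CKS1B shRNA array read above all scrambled ones.

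Partners of the surface receptors were mixed. ITGA4, an alpha chain that pairs with ITGB7, read 1206, 1548 and 1182 with the CKS1B shRNA, against 2784, 2397 and 1606 with the scrambled shRNA, without overlap (log2 -0.75, SE 0.38, adjusted p = 0.9999 in limma, and -0.88 without CKS1B shRNA array B). ITGAE, the other such chain, read 4537, 1778 and 8347 against 4627.5, 4039 and 4015.5 (log2 -0.05, SE 0.57, and 0.54 without that array), with its highest value on CKS1B shRNA array C, as for ITGB7. VCAM1, a ligand of integrins with ITGA4, read 67.4 to 284.5 against 32.2 to 74.5 (log2 1.22, and 0.70 without that array). Of 3 CCR1 ligands named here, CCL5 read 206, 1887 and 464 against 43.2, 254 and 263 (log2 1.84, SE 0.83), with CKS1B shRNA array B by far the highest. Without that array the difference was 0.99, and another CCL5 probe set gave 0.56 with 6 arrays and -0.19 without it. CCL23 read 12.6 to 171 against 14.2 to 32.6 (log2 0.69, and -0.14 without that array). VCAM1 and CCL23 read above the highest tissue-restricted gene on 0 arrays, and the first CCL5 probe set on 2.

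Lists of genes related to NUAK1, DEPTOR and FGFR3 had median log2 differences whose signs all turned when CKS1B shRNA array B was left out. For the NUAK1 list of 4 genes the median was -0.16 with 6 arrays and 0.03 without that array. In it STK11 gave -0.46 (SE 0.59) and then 0.27, and CAB39 gave -0.22 (SE 0.37) and then -0.36. In the list of 9 mTOR complex genes the median was -0.02 and then 0.27. There RPS6KB1 gave 0.73 (SE 0.45) and then 0.29, and RPTOR gave 0.97 (SE 0.66) and then 0.71. RPTOR read above the highest tissue-restricted gene on 0 arrays. Among 8 FGF receptors and adaptors the median was 0.18 and then -0.04. SPRY2 gave 1.49 (SE 0.98) and then 0.49, and FGFR2 gave 1.04 (SE 0.80) and then 0.70, both at 0 arrays above the highest tissue-restricted gene. NSD2, which the FGFR3 translocation also activates, read 1059, 458 and 593 against 1259, 1314 and 1001 (log2 -0.82, SE 0.40, and -0.57 without that array). MYC, another gene of myeloma translocations, read 12264, 124 and 10254 against 13003, 10918 and 12495, a log2 difference of -2.22 with 6 arrays and -0.11 without CKS1B shRNA array B.

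Monocyte and T cell markers, of cells that carry CCR1 or ITGB7 in blood, were dim on the 5 arrays other than CKS1B shRNA array B. All 5 monocyte markers read below the highest tissue-restricted gene on every array, and their summed level ranged from 195.5 to 1036 with the CKS1B shRNA and from 218 to 385 with the scrambled shRNA. T cell markers summed to 585 to 5307 and 473 to 1597, with CD3D, CD3E and CD5 above that gene on 1 array each, CKS1B shRNA array B. The 7 stromal and 3 erythroid markers summed to 1513 to 2943 and 433 to 1112 with the CKS1B shRNA, against 1911 to 2942 and 476 to 927 with the scrambled shRNA. Of these, ACTA2 read above that gene on 5 arrays, COL1A1 on 4 and COL1A2 on 1. Of 9 plasma cell markers, PRDM1, XBP1 and IRF4 read above the highest tissue-restricted gene on all 6 arrays. SDC1, TNFRSF17 and MZB1 did so on 5, CD38 on 3, and FCRL5 and CD27 on 0. Of 4 B cell markers MS4A1 did so on all 6 arrays, CD22 on 1, and PAX5 and CR2 on 0. The part of other cells in the results was not tested.

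In these marker lists 0 genes passed in either direction. Of the 9 plasma cell markers 3 were positive and 6 negative (median -0.32), and 2 and 7 without CKS1B shRNA array B (median -0.36). MZB1, an endoplasmic reticulum protein of antibody-secreting cells, read 1178, 442.5 and 2080.3 with the CKS1B shRNA, against 2655, 3429 and 2403 with the scrambled shRNA, without overlap (log2 -1.43, SE 0.52, unadjusted p = 0.0203, adjusted p = 0.9999 in limma). Without that array it was -0.83 (unadjusted p = 0.0111, adjusted p = 0.800 in limma), again without overlap. XBP1, a transcription factor of plasma cells, gave -0.75 and then -0.36, with overlap. Of the B cell markers, PAX5 gave 0.63 and then 0.22, and CD22 gave 0.48 and then 0.64. The T cell markers CD5 and CD2 gave 0.78 and 0.58 with 6 arrays, and 0.04 and -0.03 without that array. The monocyte markers CD14 and CSF1R gave 1.06 and -0.43, and then -0.19 and -0.67. The stromal markers ACTA2 and COL1A2 gave -1.09 and -0.83, and then -0.41 and -0.25. Of the erythroid markers, ALAS2 gave -0.78 and then -2.18, below the highest tissue-restricted gene on every array, and HBB gave -0.22 in both. Of the tissue-restricted genes themselves, CRYBB1 and PRM1 had the smallest p, with 0.81 and 1.10, and then 0.80 and 0.51.

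The genes closest to MAF and CCND2 in their course over the 6 arrays were found by the root mean square difference of centred log2 values among 12662 genes. For MAF, whose own values spanned 3.69 log2 units, these were ARID5A (0.12), RPL31 (0.13) and SRGN (0.13). Each had its lowest value on CKS1B shRNA array B and its highest on array C. For CCND2, which spanned 1.82, they were AP2S1 (0.04), SLC3A2 (0.07) and HIPK2 (0.07), each lowest on CKS1B shRNA array B and highest on array A.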

How the data were processed

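The authors deposited MAS5 intensity values, on a linear scale and 1 for each probe set of an array, as the submitters' processing notes name that tool. Its version and settings are not given in the sources. The 2% trimmed mean was 500.02 to 500.06 on every array, so each had been scaled to the same mean, which leaves the width of an array's distribution as it was. Of 54675 probe sets, 62 controls were left out. Names came from the platform annotation, updated through Entrez identifiers to RefSeq symbols (GRCh38.p14): 41091 probe sets had 1 gene, 1801 several and 11721 none. Promoter windows came from RefSeq on the same assembly, and the files name no genome build.

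Group differences were estimated on log2(value + 16) by limma 3.58.1 (R 4.3.3; lmFit, then eBayes with its trend option), over all 54613 probe sets in 1 fit without filter, and p-values were adjusted over all of them after Benjamini and Hochberg, with a threshold of 0.05. The brightest probe set is that of highest mean log2 value over the 6 arrays. Named were all member probe sets, CKS1B, the 2 genes of smallest p in each further list (none passed), marker genes by their level, and the 3 genes of smallest root mean square difference to MAF and CCND2, among genes with a mean log2 value of at least 7.338. CDK4, CDK6, ITGAE and a second CCL5 probe set were named after their values were seen. The members and lists were chosen with earlier results of these data known. The fit was run on simulated data with independent noise of 1 spread per array, to see that planted mean differences were returned. That noise lacks the shift shared by many probe sets of CKS1B shRNA array B, so the run does not show how the fit handles it. Python 3.11.15 with matplotlib 3.10.9 drew the figures. Alternatives were pseudocounts of 1 and 64, a filter at the median, 1 probe set per gene, the mean over a gene's probe sets, the array median as the dim reference, centring, quantile normalization, a replicate block, no trend, array weights and leaving out arrays. Chosen after seeing the data were centring and quantile normalization without CKS1B shRNA array B.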

Additional observations from a re-analysis of the deposited data

How the results depend on the processing

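No member probe set passed the threshold under any alternative that was run. With 1 array left out at a time, the log2 difference ranged from -0.99 to 0.86 for MAF, -0.49 to 0.42 for CCND2, -0.33 to 0.31 for CCND3, -1.48 to 0.62 for ITGB7 and -0.10 to 0.52 for FGFR3. It stayed negative for NUAK1 (-0.90 to -0.59), CCR1 and DEPTOR and positive for CCND1. The sign turned for MAF, CCND2, CCND3 and ITGB7 with array weights, which gave CKS1B shRNA array B a weight of 0.120 (0.89, 0.21, 0.12 and 0.55), without the 2 arrays of letter B (0.93, 0.46, 0.33 and 0.70), with centring and without CKS1B shRNA array B (1.05, 0.62, 0.51 and 0.82) and with quantile normalization and without it (0.47, 0.10, 0.31 and 0.46). Centring without that array also turned DEPTOR (0.033), and quantile normalization of 6 arrays turned FGFR3 (-0.028). Leaving that array out by itself turned all 4, and for CCND3 so did leaving out scrambled array A (0.09). Fewer arrays, or less weight on 1, enter these fits by construction.

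Over all probe sets, 0 passed with 6 arrays, at 965 with an unadjusted p under 0.05 in limma. Array weights gave 39 higher and 47 lower, leaving out the 2 arrays of letter B gave 11 and 5, and leaving out 1 array gave 0 to 5 and 0 to 6. Quantile normalization without CKS1B shRNA array B gave 1 and 1, and centring without it 0 and 1. CKS1B passed with array weights (-3.62), without the 2 arrays of letter B (-3.59), and without CKS1B shRNA array B after quantile normalization (-3.68) or centring (-3.43), and ranged from -4.41 to -3.63 with 1 array left out. With the array median as the reference, 7 genes in place of 3 lay above it on every array. By the mean log2 value over a gene's probe sets, 2 lay above the highest tissue-restricted gene on every array, CCND2 and CCR1. MAF and DEPTOR then did not. Deviations of arrays of the same letter correlated at 0.347, -0.160 and -0.153, and those of different letters at -0.377 to 0.329. Each group has only 3 arrays, and CKS1B shRNA array B is among them. Whether the letters pair the arrays was therefore not tested by these values. With the letter as a replicate block 0 probe sets passed, and MAF (-0.19, SE 0.78), CCND2 (-0.12, SE 0.78) and CKS1B (-4.02, adjusted p = 0.0909) kept their calls. The number of arrays limits the precision.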
